A study of Mus musculus with 8 samples.

Results

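The genes described here are 7 of the 18058 genes in the expression table of the adult mouse retina, namely the 5 carriers of lactate and related monocarboxylates Slc5a8, Slc16a1, Slc16a3, Slc16a7 and Slc16a8, and the genes Bsg and Emb for the ancillary proteins basigin and embigin. Slc5a8 was chosen for its measured fall in KO against WT libraries, so its values in this contrast are a description without a test. The other 6 genes were chosen by name, as the remaining carriers and their partners. All 7 exceeded the minimum mean of 10 normalized counts that was set for testing.

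Total RNA of whole retinae was sequenced in 4 WT libraries and 4 quadruple KO libraries, named A to D within each genotype. The KO mice carried knockout alleles of 4 matrix genes, the proteoglycan genes Bcan (brevican) and Ncan (neurocan) and the tenascin genes Tnc and Tnr, brought together by crossing single-KO lines. No restriction of these alleles to a cell type is named in the methods. The WT mice came from the inbred background strain 129S2/SvPasCrl of a commercial breeder and not from litters of the KO line, so that a difference between the mouse lines and an effect of the 4 knockouts cannot be told apart. Retinae were pooled before RNA extraction, mice were adult, both sexes were used in the study, and the age and sex behind each library are not given in the sources used here.

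Lactate is exchanged between retinal cells in large amounts. Photoreceptors ferment much of their glucose to lactate, which leaves the cell through monocarboxylate transporters (MCTs) of the SLC16 family together with a proton. Basigin and embigin are membrane glycoproteins that escort MCTs to the plasma membrane. SLC5A8 (SMCT1) moves monocarboxylates with sodium instead of protons and has been described in the neural retina and in the pigment epithelium.

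The genotype labels were checked at the targeted genes. Ncan had a mean of 688 normalized counts in WT and at most 0.853 in a KO library, Bcan had 258 and 15.0, and Tnr had 5856 and 2509 in WT and KO, whereas Tnc had 1265 and 1175. The paper reports the loss of a stretch of sequence within each of these genes, so the level of a whole gene need not show the knockout. By western blot, the paper did not detect the proteins in postnatal KO retinae. Normalized counts are estimated reads per gene scaled between libraries, and 1 read was worth 0.711 (KO C) to 1.78 (WT B) of them, for an estimated 23.7 to 52.3 M reads per library. The WT libraries were not uniform. The share of the 13 mitochondrially encoded mRNAs was low in WT B (0.402%) and WT C (0.341%), whereas the KO libraries had 1.33% to 1.47%, WT A had 1.28% and WT D had 1.64%. The 9 rod and 8 Mueller glia markers examined were above 0 in each library.

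Start regions of 3 carriers are shown because they belong to the carrier that is missing from the KO libraries (Slc5a8), the most abundant carrier (Slc16a1) and the carrier of the pigment epithelium (Slc16a8). Each window spans 250 bases before to 50 bases after the RefSeq start of transcription (RefSeq promoter sequences of GRCm38.p6, located by exact match in GRCm39), is written 5′ to 3′ on the strand of the gene, and has CG dinucleotides in capitals. Of the 7 genes, 5 had such a window in the RefSeq table, and Slc16a7 and Bsg had none there.
Slc5a8 (GRCm39 chr10:88721604-88721903, plus strand): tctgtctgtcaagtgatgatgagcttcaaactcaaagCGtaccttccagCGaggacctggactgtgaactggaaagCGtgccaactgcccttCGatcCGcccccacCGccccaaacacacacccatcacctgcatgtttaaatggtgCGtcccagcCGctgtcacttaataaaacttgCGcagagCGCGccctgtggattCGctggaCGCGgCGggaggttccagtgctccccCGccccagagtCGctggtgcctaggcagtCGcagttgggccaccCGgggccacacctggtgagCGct
Slc16a1 (GRCm39 chr3:104545730-104546029, plus strand): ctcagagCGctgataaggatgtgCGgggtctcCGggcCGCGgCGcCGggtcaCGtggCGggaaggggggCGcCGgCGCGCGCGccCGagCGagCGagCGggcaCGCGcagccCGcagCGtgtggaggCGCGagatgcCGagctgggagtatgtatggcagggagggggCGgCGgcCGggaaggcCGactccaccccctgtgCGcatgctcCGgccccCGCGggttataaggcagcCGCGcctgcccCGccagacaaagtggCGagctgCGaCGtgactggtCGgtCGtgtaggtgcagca
Slc16a8 (GRCm39 chr15:79138899-79139198, minus strand): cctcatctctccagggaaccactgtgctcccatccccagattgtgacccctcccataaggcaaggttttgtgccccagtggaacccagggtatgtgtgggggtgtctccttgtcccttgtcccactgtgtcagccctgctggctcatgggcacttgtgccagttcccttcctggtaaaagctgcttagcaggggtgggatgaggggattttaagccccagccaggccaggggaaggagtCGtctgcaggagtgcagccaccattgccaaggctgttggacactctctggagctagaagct
The letters CG occurred 20 times in the Slc5a8 window, 42 times in that of Slc16a1 and 1 time in that of Slc16a8. Of all 32851 promoter windows of this length, 26.5% held at least as many CG dinucleotides as Slc5a8, 3.03% as many as Slc16a1 and 94.6% as many as Slc16a8. These are properties of the sequence and do not measure transcription.

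Slc5a8 mRNA was present in all 4 WT retina libraries and close to absent from all 4 KO libraries. Slc5a8 (ENSMUSG00000020062.8, GRCm39 chromosome 10, 88721766 to 88765377, plus strand) had 120, 70.0, 84.4 and 119 normalized counts in WT A to D, a mean of 98.4 ± 25.2 (SD, n = 4). In the KO it had 0.854 in KO A, about 1 read, and 0 in KO B, KO C and KO D. The genotypes did not overlap, which was the reason for choosing the gene. Among all genes tested, 3.58% had each KO library below each WT library.

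A value of 0 still allows up to 3 reads, which are worth 2.57, 2.21, 2.13 and 2.79 normalized counts in KO A to D. The limit of a value of 0 was also used for KO A, although that library had about 1 read. Set against the mean of these limits (2.43), the WT mean was at least 40.6-fold higher than the KO level. The WT values corresponded to about 119, 39.4, 56.4 and 132 reads in WT A to D, so that the lower pair, WT B and WT C, also came from the libraries with the fewest reads. WT B and WT C together reached 0.645 of the level of WT A and WT D, and the bound was at least 49.3-fold against the mean of WT A and WT D and at least 31.8-fold against that of WT B and WT C. The part of the differences between WT libraries in this result was not tested. In bulk tissue, fewer cells that express a gene and less of its RNA per cell cannot be told apart.

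The level of Slc5a8 was low in WT as well. Per kb of canonical transcript, Slc5a8 reached 18.2 ± 4.66 normalized counts in WT (SD, n = 4), the lowest of the 7 genes. Its share in the summed per-kb level of the 5 carriers ranged from 0.520% in WT B to 0.911% in WT A, with a mean of 0.713%. The sum of the 5 carriers per kb was 2548 ± 110 in WT and 2604 ± 144 in the KO (SD, n = 4 each), so that the loss of Slc5a8 was smaller than the spread of the sum between libraries.

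**Figure D1:**
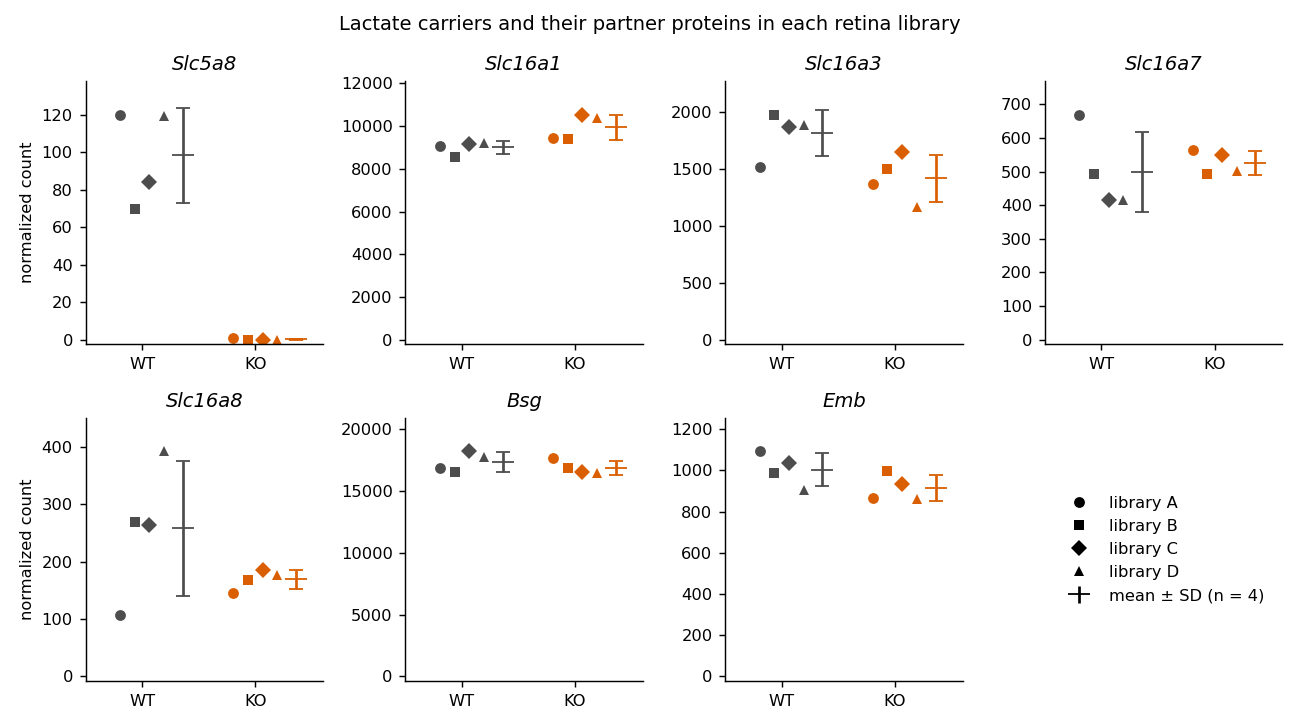
Normalized counts (vertical axes, linear from 0, a scale of its own for each gene) of the 7 genes in WT (grey) and KO (orange) libraries, with symbols for libraries A to D and bars for the mean ± SD (n = 4). Slc5a8 lies between 70.0 and 120 in WT and at or below 0.854 in the KO, and Slc16a1 is the one other gene of the 7 whose genotypes do not overlap.

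None of the 6 carriers and partners chosen by name passed the test between KO and WT (limma, Benjamini-Hochberg adjusted p under 0.05), where 0.437% of the 17636 genes tested did, 0.176% lower and 0.261% higher in the KO. At an unadjusted p under 0.05, 1 of the 6 passed (Slc16a3), a share close to the 16.6% of all genes tested that did so. The count of adjusted calls stayed at 0 under all 18 alternative settings. Intervals of the differences are given below for each gene, because a missed threshold does not show that the levels were alike.

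Slc16a1 encodes MCT1, which is widely expressed in the retina and serves lactate uptake and release. Its normalized counts were 9056, 8560, 9188 and 9211 in WT A to D and 9469, 9418, 10534 and 10362 in KO A to D (ENSMUSG00000032902.2, chromosome 3, 104545811 to 104565780, plus strand). Each KO library lay above each WT library, as for 6.16% of all genes tested. The means were 9004 ± 304 in WT and 9946 ± 584 in the KO (SD, n = 4 per genotype), which gave a log2 fold change of 0.14 (SE 0.07, 95% interval -0.01 to 0.29) with a limma adjusted p of 0.303. The two-sided exact permutation test gave p = 0.0286, below which 4 against 4 libraries cannot go. The summed level of the 9 rod markers was also higher in each KO library, with 4.47, 3.13, 3.80 and 4.77% of all normalized counts in WT A to D and 4.78, 4.84, 5.11 and 4.96% in KO A to D, and 3 of the 9 markers had each KO above each WT library. The part of the rod markers in the level of Slc16a1 was not tested. The genes Gm43581 (log2 fold change 0.47, limma adjusted p = 0.301) and Gm43585 (0.13, limma adjusted p = 0.724) lie on the same strand within the body of Slc16a1, with 2864 and 1403 bp, so that reads could be split between them and Slc16a1.

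Slc16a3 encodes MCT4, the lactate exporter of strongly glycolytic cells. Its normalized counts were 1516, 1973, 1866 and 1884 in WT A to D and 1367, 1495, 1647 and 1160 in KO A to D (ENSMUSG00000025161.17, chromosome 11, 120838846 to 120851694, plus strand). KO C lay above WT A, so the genotypes overlapped, although the other 3 KO libraries lay below every WT library. The mean was 1810 ± 201 in WT and 1417 ± 206 in the KO (SD, n = 4 per genotype), and the log2 fold change was -0.36 (SE 0.12, 95% interval -0.64 to -0.08) with a limma adjusted p of 0.301 and p = 0.0571 in the two-sided exact permutation test. On the opposite strand, Csnk1d shares 7872 bp and Ccdc57 shares 2282 bp of the gene body, with log2 fold changes of 0.04 and 0.17. The library kit marks the strand, and whether the counting used it is not given in the sources used here.

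Slc16a7 encodes MCT2, a high-affinity carrier known from neurons. Its normalized counts were 669, 494, 416 and 414 in WT A to D and 565, 492, 549 and 501 in KO A to D (ENSMUSG00000020102.16, chromosome 10, 125055129 to 125225463, minus strand). WT A stood above and WT C and WT D below all KO libraries. The mean was 498 ± 120 in WT and 527 ± 35.6 in the KO (SD, n = 4 per genotype), and the log2 fold change was 0.11 (SE 0.15, 95% interval -0.24 to 0.45) with a limma adjusted p of 0.684 and p = 0.743 in the two-sided exact permutation test. The sign turned with array weights (-0.145, adjusted p = 0.617) and when WT B and WT C were left out together (-0.0013, adjusted p = 0.998). The log2 fold change was 0.26 without WT A, 0.029 without WT C and 0.027 without WT D.

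Slc16a8 encodes MCT3, the lactate carrier of the basolateral membrane of the retinal pigment epithelium. Its normalized counts were 107, 268, 264 and 392 in WT A to D and 146, 167, 185 and 177 in KO A to D (ENSMUSG00000032988.5, chromosome 15, 79135214 to 79138964, minus strand). The WT libraries reached from below to above all KO libraries. The mean was 258 ± 117 in WT and 169 ± 17.0 in the KO (SD, n = 4 per genotype), and the log2 fold change was -0.47 (SE 0.34, 95% interval -1.23 to 0.29) with a limma adjusted p of 0.416 and p = 0.143 in the two-sided exact permutation test. With array weights the sign turned (0.116, adjusted p = 0.878), and the log2 fold change was -0.84 without WT A and -0.22 without WT D. The gene lies within the bodies of Pick1 and Gm49486 on the opposite strand, which had log2 fold changes of -0.08 and 0.32.

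Pigment epithelium markers also varied between the retina libraries. Of 13 such markers, 12 were in the table, none was at 0 in any library and none was called. Their summed level was 3734, 5049, 4814 and 9112 normalized counts in WT A to D and 3951, 4722, 5091 and 5521 in KO A to D. In WT the order of the libraries by Slc16a8 was the same as by the marker sum, from WT A over WT C and WT B to WT D. This did not hold for each marker, since Rrh (454, 316, 279 and 610 in WT A to D) and Mitf (313, 243, 224 and 363) were higher in WT A than in WT B and WT C. In the KO, Slc16a8 was highest in KO C and the marker sum in KO D. Per 1000 normalized counts of these markers, Slc16a8 had 28.6, 53.1, 54.8 and 43.0 in WT A to D and 37.0, 35.4, 36.4 and 32.1 in KO A to D, and the genotypes overlapped on this scale too. The part of adhering pigment epithelium in the level of Slc16a8 was not tested.

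**Figure D2:**
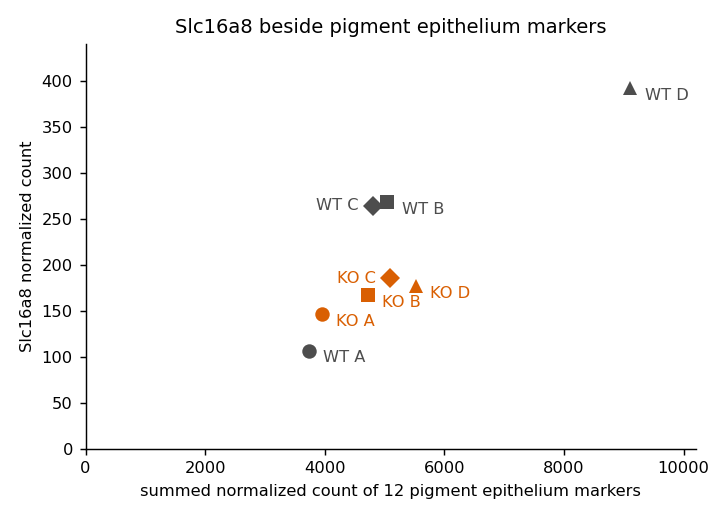
Normalized count of Slc16a8 (vertical axis) against the summed normalized count of 12 pigment epithelium markers (horizontal axis), 1 point per library, WT in grey and KO in orange. WT A is lowest (107 at a sum of 3734) and WT D highest (392 at a sum of 9112) on both axes.

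The genes of the ancillary proteins did not pass the test, and their libraries overlapped between the genotypes. Bsg, whose product basigin escorts MCT1, MCT3 and MCT4 (ENSMUSG00000023175.16, chromosome 10, 79540143 to 79547821, plus strand), had 16893, 16532, 18213 and 17803 normalized counts in WT A to D and 17701, 16836, 16523 and 16496 in KO A to D. Its means were 17360 ± 780 and 16889 ± 563 (SD, n = 4 per genotype), and the log2 fold change was -0.04 (SE 0.06, 95% interval -0.18 to 0.10) with a limma adjusted p of 0.718 and p = 0.229 in the two-sided exact permutation test. Emb, whose product embigin is the preferred partner of MCT2 (ENSMUSG00000021728.9, chromosome 13, 117345072 to 117414817, plus strand), had 1091, 985, 1033 and 904 in WT A to D and 865, 998, 931 and 861 in KO A to D. For Emb the means were 1003 ± 79.2 and 914 ± 64.3, with a log2 fold change of -0.13 (SE 0.09, 95% interval -0.33 to 0.06), a limma adjusted p of 0.379 and p = 0.143 in the two-sided exact permutation test.

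**Figure D3:**
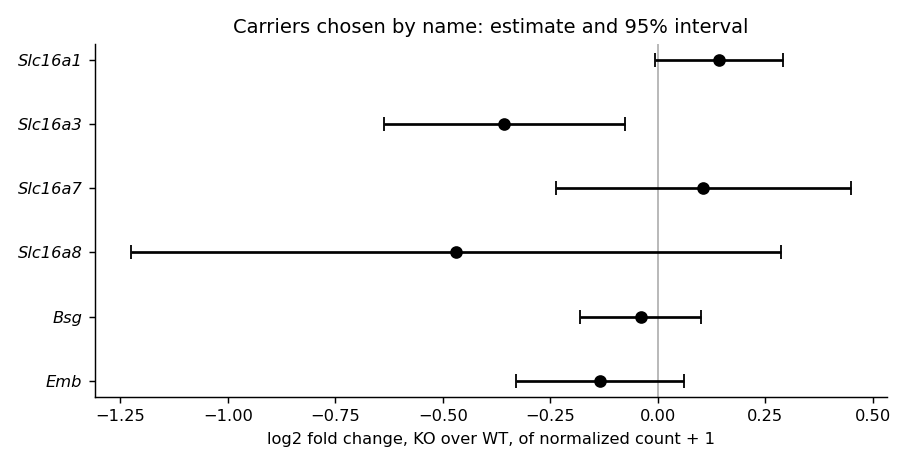
Log2 fold change of KO over WT on the scale of log2(normalized count + 1) for the 6 genes chosen by name, with the 95% interval from limma (4 libraries per genotype). The interval of Slc16a3 (-0.64 to -0.08) is the one that does not include 0, and the widest is that of Slc16a8 (-1.23 to 0.29).

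The order of the levels, in mean normalized counts per kb of canonical transcript, was the same in both genotypes. In WT, Bsg came first with 9597, followed by Slc16a1 with 1957, Slc16a3 with 385, Emb with 148, Slc16a8 with 142, Slc16a7 with 45.1 and Slc5a8 with 18.2. The WT libraries of Emb and Slc16a8 overlapped, as did those of Slc16a8 and Slc16a7, and the other neighbours in this order did not. In the KO the levels were 9336 for Bsg, 2162 for Slc16a1, 302 for Slc16a3, 135 for Emb, 93.4 for Slc16a8, 47.7 for Slc16a7 and 0.039 for Slc5a8, with no overlap between neighbours. With the total exonic length in place of the canonical transcript, Slc16a8 (113) came before Emb (92.4) in WT. In the KO, Emb (84.1) came before Slc16a8 (74.0) by that length, so the order then differed between the genotypes. The libraries of these genes overlapped by that length in each genotype.

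Slc16a1 made up most of the carrier mRNA. Of the summed per-kb level of the 5 carriers, Slc16a1 took 76.9 ± 2.89% in WT and 83.0 ± 1.57% in the KO (SD, n = 4 each). Slc16a3 took 15.1 ± 1.49% and 11.6 ± 1.56%, Slc16a8 took 5.53 ± 2.34% and 3.58 ± 0.218%, and Slc16a7 took 1.79 ± 0.502% and 1.84 ± 0.154%. The share of Slc16a1 was 80.9, 74.8, 77.0 and 74.7% in WT A to D and 83.0, 81.8, 82.0 and 85.2% in KO A to D, above every WT library in each KO library. These shares rest on transcript lengths and on the same 8 libraries as the gene levels and are a description. Bsg and Emb together had 3.83 ± 0.113 normalized counts per kb for each of the carriers in WT and 3.65 ± 0.298 in the KO, and the libraries overlapped.

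**Figure D4:**
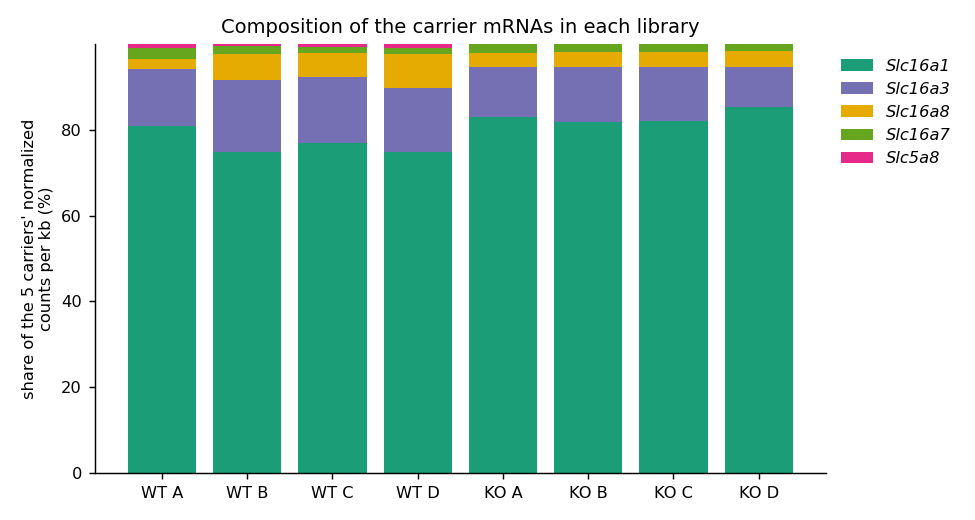
Share of each carrier (percent, vertical axis) in the summed normalized counts per kb of the 5 carriers, 1 stacked bar per library. Slc16a1 takes 74.7% to 80.9% in WT and 81.8% to 85.2% in the KO, and the thin band of Slc5a8 at the top of the WT bars (0.520% to 0.911%) is missing in the KO.

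Related genes were read out from 6 lists of 74 genes, of which 62 were in the table and tested, and 1 was called, where 0.437% of all genes tested were. Among the other SLC16 genes, which carry amino acids and other solutes, 9 of 10 were tested, none was called, and the median log2 fold change was 0.24 against -0.00018 over all genes tested. Slc16a14 had the lowest log2 fold change (-0.62, limma adjusted p = 0.301), Slc16a4 the highest (0.75, limma adjusted p = 0.304), and Slc16a6 the highest level, with 1116 normalized counts per kb in WT. Slc16a6 had each KO library above each WT library. Of the 12 other sodium-coupled carriers of the SLC5 family, 5 were in the table and tested, and Slc5a12 was not among them. None of the 5 was called (median 0.29). They ranged from Slc5a5, the iodide carrier (0.13), to Slc5a1, the intestinal glucose carrier (0.55), and Slc5a6, a vitamin carrier, had the highest level with 225 normalized counts per kb in WT.

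Genes that make and use lactate and pyruvate showed no call either. Of 18 genes for lactate dehydrogenases, the mitochondrial pyruvate carrier, the pyruvate dehydrogenase complex with its kinases and phosphatases, and pyruvate carboxylase, 17 were tested, with a median log2 fold change of 0.08. Ldha, which encodes the lactate dehydrogenase subunit that favours lactate formation, had the highest level with 15885 normalized counts per kb in WT and a log2 fold change of 0.08 (limma adjusted p = 0.573). Ldhd, for D-lactate dehydrogenase, had the lowest log2 fold change (-0.37, limma adjusted p = 0.325) and Dld, for a shared subunit of mitochondrial dehydrogenase complexes, the highest (0.45, limma adjusted p = 0.301). Dld had 2883, 1638, 1718 and 2821 normalized counts in WT A to D and 2919 to 3221 in the KO, so that WT B and WT C stood apart from the other 6 libraries. Of the 6 ketone body enzymes, whose substrates are further cargo of these carriers, none was called (median -0.12). Bdh1 had the lowest log2 fold change (-0.62) and Oxct1 the highest (0.26). Of 9 partner genes, which include neuroplastin, the rod-derived cone viability factor Nxnl1 and carbonic anhydrases, 6 were tested and none was called (median 0.15, from Car14 at -0.27 to Car4 at 0.29, with Car2 the most abundant at 5259 normalized counts per kb in WT).

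Of 19 glucose carriers and glycolytic enzymes, 1 was called, the hexokinase gene Hk2, which fell in the KO. Hk2 had 23148, 26813, 27196 and 22556 normalized counts in WT A to D and 16915, 15934, 18963 and 16314 in KO A to D, with no overlap. Hk2 is the hexokinase isoform of photoreceptors and other strongly glycolytic cells. Its log2 fold change was -0.55 (SE 0.09, limma adjusted p = 0.0383), and over the 18 alternatives the adjusted p ranged from 0.00865 to 0.199. The call was lost in 9 of them, including each fit without 1 library other than WT D. With WT B and WT C left out together, Hk2 kept its call (log2 fold change -0.43, limma adjusted p = 0.0257). In the list, 16 of 19 genes had a log2 fold change below 0, the median was -0.17, and 7 had each KO library below each WT library, against 3.58% of all genes tested. The summed level of the list was 1.25, 1.28, 1.41 and 1.27% of all normalized counts in WT A to D and 1.19, 1.19, 1.22 and 1.17% in KO A to D. WT B and WT C stood highest, as they did for the sum of the 8 Mueller glia markers (0.441, 0.487, 0.488 and 0.396% in WT A to D, 0.401 to 0.438% in the KO). Glul held the largest part of that sum, with 98453, 135955, 132019 and 81946 normalized counts in WT A to D. The pattern did not hold for each marker, since Slc1a3 (7156, 5673, 5128 and 7101) and Kcnj10 (3738, 2608, 2670 and 3955) were lowest in WT B and WT C. For the glycolysis list as a whole, the part of the difference between WT libraries was not tested. Gapdh had the highest level of the list, 51960 normalized counts per kb in WT, with a log2 fold change of -0.13 (limma adjusted p = 0.368).

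**Figure D5:**
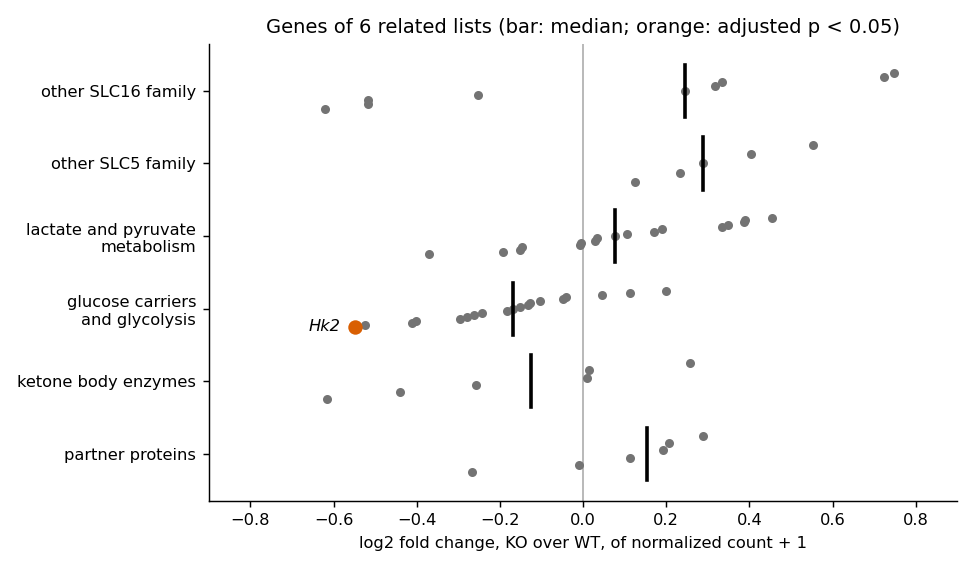
Log2 fold changes of KO over WT on the scale of log2(normalized count + 1) for the 62 tested genes of the 6 lists, 1 point per gene, with the list median as a black bar. Hk2 (-0.55) in the glycolysis list, in orange, is the 1 gene with a limma adjusted p under 0.05.

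The surroundings of Slc5a8 on chromosome 10 were examined for genes within 1 Mb. Of 18 tested neighbours, 1 was called (5.56% against 0.437% of all genes tested), and 9 had a log2 fold change below 0. Each KO library lay below each WT library for 3 of the neighbours (3.58% of all genes tested) and above for 1 of them (6.16%). The called gene was Slc17a8, which encodes the vesicular glutamate transporter VGLUT3 of a class of amacrine cells and lies 644505 bp from Slc5a8. Slc17a8 had 473, 545, 567 and 403 normalized counts in WT A to D and 216, 277, 236 and 211 in KO A to D, with a log2 fold change of -1.07 and a limma adjusted p of 0.00721. It was called under all 18 alternatives, with log2 fold changes from -1.17 to -0.90. The nearest tested protein-coding genes on both sides were not called, with log2 fold changes of 0.08 for Utp20 (59067 bp away, limma adjusted p = 0.486) and -0.29 for Ano4 (19412 bp away, limma adjusted p = 0.301). Within 1 Mb of the other 6 genes no gene was called, with 39 genes tested around Slc16a1, 59 around Slc16a3, 54 around Slc16a8, 71 around Bsg, 4 around Emb and 1 around Slc16a7.

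The genes whose levels over the 8 libraries were most like those of Slc5a8 on the log2 scale were Ncan (Pearson r = 0.993), Gm10503 (0.993), Tnr (0.992), Bcan (0.987) and Vmn1r15 (0.981). Of these 5, 3 are targeted genes. All 5 were lower in each KO library than in each WT library (3.58% of all genes tested), which their choice by likeness to Slc5a8 favoured. Gm10503 on chromosome 17 had 310 to 747 normalized counts in WT and 0 to 0.925 in the KO, and Vmn1r15 on chromosome 6, a vomeronasal receptor gene, had 22.4 to 37.8 in WT and 0 to 2.57 in the KO. Because the libraries are split by genotype, these coefficients describe the difference between genotypes and not a relation within them.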

How the data were processed

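Total RNA of adult mouse retina was sequenced in 4 WT and 4 quadruple KO libraries. The authors trimmed the reads (Trim Galore 0.6.7), aligned them to GRCm39 (STAR 2.7.9a), estimated gene counts (Salmon 1.5.2) and deposited normalized counts per library from DESeq2 1.32.0, in a table that also holds the fold changes and p-values of the authors' own comparison, none of which was used here. The normalized counts that the authors deposited are not whole reads. In each library, 34.2% to 64.0% of low values were within 5% of a whole step, so the worth of 1 read is an estimate and no count model was fitted. The limits of 3 reads cover counting error only.

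KO and WT were compared with limma 3.58.1 in R 4.3.3 (eBayes with trend, no covariates) on log2(normalized count + 1), using 17636 genes whose mean was 10 or more, with Benjamini-Hochberg adjustment over all of them and calls at an adjusted p under 0.05. Fold changes on this scale understate those of low genes. Exact permutation tests on normalized counts were two-sided. The limma p-values set the difference between genotypes against the spread between these libraries, and the permutation p-values set it against regroupings of them. Retinae were pooled, so this spread need not be that between mice. Lengths and positions came from the GENCODE vM39 annotation of GRCm39, which matched 17969 of the 18058 genes. Levels per kb used the canonical transcript. Aldoa stands on more than 1 row, and the row with the higher mean was used. Python 3.11.15, numpy 2.4.6, pandas 2.3.3, scipy 1.17.1 and matplotlib 3.10.9 were used for summaries and plots, and the steps were tested on simulated data.

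The genes, the 6 pathway lists and the marker lists were chosen with earlier results of these data known. Of each pathway list the text names the called genes, otherwise the lowest and highest log2 fold change, and the highest level per kb. It also names the 5 genes most like Slc5a8, the called and nearest protein-coding neighbours within 1 Mb, and the targeted genes. Some genes that this rule covers are not reported here. Markers of 10 cell types (retinal pigment epithelium, Mueller glia, rods, cones, endothelium, microglia, erythrocytes, muscle, lens, fibroblasts) held 69 tested genes. Of these, 1 was called, the cone gene Pde6c, higher in the KO, where 0.437% of all genes tested were called. Of the 8 cone markers, 5 had a log2 fold change below 0. The alternatives were other pseudocounts, filters, normalizations and priors, array weights, the library letter as a block, leaving out WT B and WT C together, and leaving out each library. The letters did not pair the libraries.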

Additional observations from a re-analysis of the deposited data

Results flagged for a closer look

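Slc5a8 in KO A had 0.854 normalized counts, about 1 read, while the other 3 KO libraries had 0. This value stood apart from its group by Dixon's test at the 95% level. Chance flags about 1 in 20 groups, and a single read above 0 is enough where all other values are 0.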

How the results depend on the processing

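No call among the 6 carriers and partners chosen by name appeared under any of the 18 alternatives, and Slc17a8 kept its call in all of them. The number of called genes, 77 with the settings as reported, was 143 with array weights and 51 with the library letter as a replicate block, and 54 to 89 with 1 library left out. The library letters did not pair the libraries, with correlations of same-letter deviations between -0.109 and 0.0980. The number of called genes of the pathway lists, 1 as reported (Hk2), was 0 with eBayes without trend and 0 with the replicate block, and 0 to 1 with 1 library left out, where it was 1 only without WT D. The adjusted p of Hk2 was 0.0997 without trend and 0.136 with the block. The log2 fold change reversed for Slc16a7 with array weights (-0.145) and without both WT B and WT C (-0.0013), and for Slc16a8 with array weights (0.116). The cause was not tested. The fitted log2 fold change of Slc5a8 was -6.38, and -9.09 and -3.38 with pseudocounts of 0.1 and 10, so it is no bound, and a minimum mean of 100 removed the gene. Depth limits Slc5a8 to the bound given for 3 reads. By total exonic length, a choice made after seeing the data, its share of the 5 carriers in WT was 0.895%.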
